A study of Mus musculus with 6 samples.

Results

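Transcripts of 10 heat shock genes of heart muscle were examined in ventricles of newborn mice with and without a heart-specific knockout of Med12. The genes were chosen by symbol, with earlier results of these data known. Shares over all genes therefore stand beside their counts as description only. All 10 were among the 24062 symbols of the count table: Hspa1l, Hspa1a, Hspa1b and Hspa8 of the HSP70 family, Hsph1, Dnajb1, Hsp90aa1, and the small heat shock genes Hspb1, Cryab and Hspb7. The 3 Med12cKO libraries (CrePOS) and the 3 control libraries (CreNEG) came from ventricles of male C57/Bl6N mice at P1, the first day after birth. Cre was carried by the knockout mice and not by the controls, so Cre and the loss of Med12 cannot be told apart in any difference below. The promoter that drove Cre, the floxed state of the control mice and the number of animals behind each library are not stated in the sources used here. P-values therefore measure the spread between these libraries, which may be technical in part. Ventricle tissue holds many cell types, and fewer cells of a type cannot be told apart from less RNA per cell.

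Heat shock proteins are chaperones that keep other proteins folded. The HSP70 proteins bind and release unfolded stretches with the help of J-domain partners, which deliver clients, and of exchange factors, which reset the chaperone, while HSP90 matures kinases, receptors and other clients. Small heat shock proteins hold unfolding proteins without ATP, and in heart muscle they guard the Z-disc, desmin and actin filaments. The transcription factor HSF1 switches on the inducible members within minutes of heat or protein damage, whereas constitutive members are present at all times.

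The libraries held 8453346 to 10150557 counts in the Med12cKO group and 8930340 to 10911698 in the control group, so that 3 counts corresponded to 0.286 to 0.345 CPM. Med12 itself, the targeted gene, measured 61.6, 85.0 and 41.3 CPM in Med12cKO replicates 1 to 3, against 103, 176 and 113 CPM in control replicates 1 to 3, with no overlap (log2 fold change −1.06, SE 0.30, adjusted p of 0.765 in edgeR and 0.024 in DESeq2). In DESeq2 that call was lost without Med12cKO replicate 1 or 3 or control replicate 2 or 3 (adjusted p of 0.258, 0.127, 0.818 and 0.107), with log2 fold changes from −1.35 to −0.78 over the 6 fits that left out 1 library. All 12 cardiomyocyte markers were detected in both groups, with summed levels of 39678 to 51235 CPM in Med12cKO and 49352 to 63320 CPM in control. Their median log2 fold change, Med12cKO over control, was −0.26. The 10 thymus T-cell markers summed to 789 CPM in Med12cKO replicate 1 and 787 CPM in control replicate 3, against 3.33 to 5.41 CPM in the other 4 libraries. The 15 skeletal muscle markers summed to 279 CPM in Med12cKO replicate 1, against 51.4 to 73.0 CPM in the other 5. Below, CPM are counts scaled to a common library size with TMM factors, means are given with SD and n = 3 per group, and a gene was called at an adjusted p under 0.05 in the quasi-likelihood test of edgeR, adjusted by Benjamini-Hochberg over the 13629 genes that passed the filter on low counts. All 10 heat shock genes passed that filter. EdgeR called 0 of them, where 3 of 13629 genes, 0.022%, were called over the whole table (0.00734% higher and 0.0147% lower in Med12cKO). At an unadjusted p under 0.05 there were 2 of the 10, Hspa1l and Hsp90aa1, both higher in Med12cKO, where 3.78% of all genes reached that level (2.16% higher and 1.61% lower). DESeq2 called 1 of the 10, Hspa1l, where it called 0.489% of 12475 genes. The median log2 fold change of the 10 genes was 0.08, beside 0.01 over all genes tested.

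**Figure D1:**
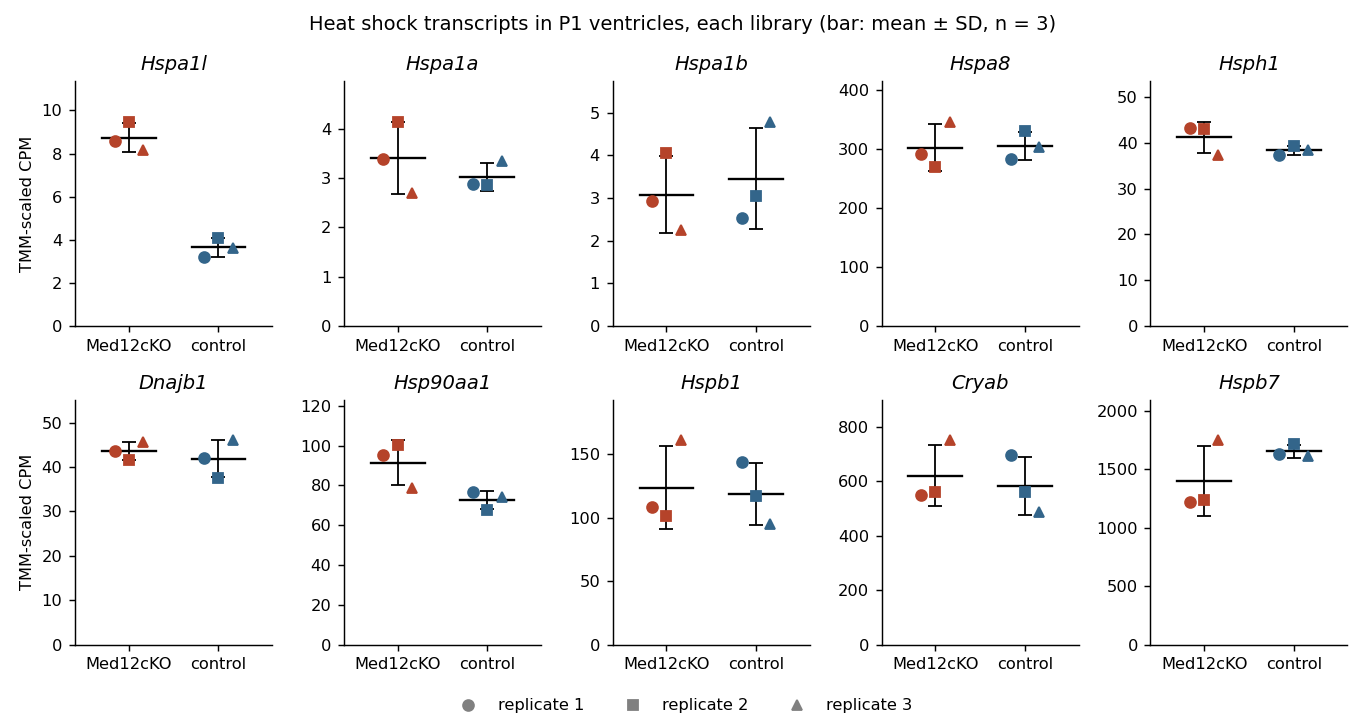
TMM-scaled CPM of the 10 heat shock genes in each library, with Med12cKO left of control in every panel and an axis that starts at 0. Points are libraries, horizontal lines are means and error bars are SD (n = 3). The groups stand clear of each other for Hspa1l, just miss touching for Hsp90aa1 and overlap for the other 8 genes.

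The inducible HSP70 genes lie together on chromosome 17, and their promoters are shown because the member that differed most between the groups, Hspa1l, is the immediate neighbour of a near-identical pair whose groups overlapped. Hspa1a (chr17:34969190-34972156, minus strand) and Hspa1b (chr17:34956436-34959238, minus strand) are single-exon genes for the classical stress-inducible HSP70, and Hspa1l (chr17:34972703-34979285, plus strand, 2 exons) encodes a related HSP70 known in mice chiefly from spermatids. The annotated starts of Hspa1a and Hspa1l are 547 bases apart and face away from each other. The 250 bases before each start, from RefSeq on GRCm38.p6, are printed 5′ to 3′ on the gene's strand. Capitals mark a heat shock element core, searched on both strands as GAANNTTC or TTCNNGAA, each of which reads the same on both strands.
Hspa1l: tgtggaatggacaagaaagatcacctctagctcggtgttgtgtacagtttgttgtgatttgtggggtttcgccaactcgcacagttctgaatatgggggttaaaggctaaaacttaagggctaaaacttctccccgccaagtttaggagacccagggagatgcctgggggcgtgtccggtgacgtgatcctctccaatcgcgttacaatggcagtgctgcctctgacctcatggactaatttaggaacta
Hspa1a: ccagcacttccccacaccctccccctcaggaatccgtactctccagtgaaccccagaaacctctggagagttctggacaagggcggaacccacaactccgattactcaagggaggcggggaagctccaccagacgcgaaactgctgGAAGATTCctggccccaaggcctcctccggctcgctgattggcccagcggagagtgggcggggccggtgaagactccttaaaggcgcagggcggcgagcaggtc
Hspa1b: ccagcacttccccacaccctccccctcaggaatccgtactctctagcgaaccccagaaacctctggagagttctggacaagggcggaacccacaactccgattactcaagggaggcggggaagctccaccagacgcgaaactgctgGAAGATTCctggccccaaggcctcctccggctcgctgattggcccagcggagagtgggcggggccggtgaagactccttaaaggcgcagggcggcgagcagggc
These windows lie at chr17:34972453-34972702 (plus strand) for Hspa1l, chr17:34972157-34972406 (minus strand) for Hspa1a and chr17:34959239-34959488 (minus strand) for Hspa1b. The windows of Hspa1a and Hspa1b differed at 3 of 250 bases and each held the core once, from 104 to 97 bases before the start. That of Hspa1l held no match, which says only that these letters are not in this window. Either core occurred in 12.8% of the 32851 windows of the same length before all RefSeq starts.

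Reads counted for Hspa1l were more numerous in every Med12cKO library than in any control. They cannot be told apart from reads of Gm10501, an antisense RNA over most of its exon bases. Hspa1l had 76, 96 and 76 counts in Med12cKO replicates 1 to 3, against 28, 43 and 38 counts in control replicates 1 to 3. Scaled, these were 8.57, 9.47 and 8.18 CPM in Med12cKO and 3.22, 4.10 and 3.63 CPM in control. The lowest Med12cKO library stood well above the highest control, and the libraries within each group lay close together. The Med12cKO mean of 8.74 ± 0.66 CPM was 2.39 times the control mean of 3.65 ± 0.44 CPM. On the log2 scale the fold change was 1.25 (SE 0.22, 95% interval 0.77 to 1.74). Its unadjusted p of 0.000219 ranked 21 among 13629 genes, and with an adjusted p of 0.129 in edgeR the gene was not called. In DESeq2 the adjusted p was 0.023. In DESeq2 the call was lost without Med12cKO replicate 1 or 2 or without control replicate 1, 2 or 3 (adjusted p of 0.258, 0.167, 0.139, 0.093 and 0.230) and kept without Med12cKO replicate 3 (0.037), while the log2 fold change stayed between 1.18 and 1.35 in these fits. Permuting the log2 CPM exactly, on both sides, gave p = 0.10, the smallest that 3 against 3 libraries allow. Among the libraries whose sample description opens with the letter J, Med12cKO replicate 2 had 9.47 CPM and control replicate 1 had 3.22 CPM. Among those with the letter I, Med12cKO replicates 1 and 3 had 8.57 and 8.18 CPM and control replicates 2 and 3 had 4.10 and 3.63 CPM. Without both libraries that held thymus markers the log2 fold change was 1.26, the same size as with them.

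Hspa1a and Hspa1b, the textbook targets of the heat shock response, were low in both groups. Hspa1a measured 3.38, 4.14 and 2.69 CPM in Med12cKO and 2.88, 2.86 and 3.35 CPM in control. Hspa1b measured 2.93, 4.05 and 2.26 CPM in Med12cKO and 2.53, 3.05 and 4.78 CPM in control. The groups overlapped for both genes, with Med12cKO replicate 2 the highest of its group and Med12cKO replicate 3 the lowest. The log2 fold change was 0.17 (SE 0.28) for Hspa1a and −0.17 (SE 0.34) for Hspa1b, each with an adjusted p of 0.9999 in edgeR. Counts of 21 to 50 per library left wide intervals, from 0.73-fold to 1.73-fold for Hspa1a and from 0.52-fold to 1.52-fold for Hspa1b. Of the 100-base windows of the Hspa1a transcript 48.6% also occur in transcripts of genes elsewhere, among them Hspa1b, and the share was 49.9% for Hspa1b, so counting may have split or lost reads of the pair. Of the Hspa1a exon bases 19% are also annotated to Gm20481 on the opposite strand. With the counts of the pair summed before the fit, the log2 fold change was 0.00027. For Hspa1l 5.65% of such windows are shared with Hspa1a or Hspa1b, but 71.9% of its exon bases are also annotated to Gm10501, an antisense RNA on the opposite strand. Strand use in counting was not given, so reads of Hspa1l and of Gm10501 cannot be told apart.

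Within the cluster the raw counts can be set beside each other in each library. Hspa1l had 1.36, 1.16 and 1.65 times as many counts as Hspa1a and Hspa1b together in Med12cKO replicates 1 to 3, against 0.596, 0.694 and 0.447 times as many in control replicates 1 to 3. Every Med12cKO ratio was above every control ratio. A ratio of 1 does not mark equal levels, because these counts are not scaled by gene length and reads of the pair may be lost. The mean log2 ratios differed by 1.27, a description chosen after the values were seen that restates the Hspa1l difference beside that of the pair. Lsm2, the next gene downstream on the same strand as Hspa1l and likewise chosen afterwards, encodes an RNA-binding protein of splicing and measured 18.3, 17.4 and 20.3 CPM in Med12cKO and 17.03, 14.5 and 18.5 CPM in control, a log2 fold change of 0.16 (SE 0.16).

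**Figure D2:**
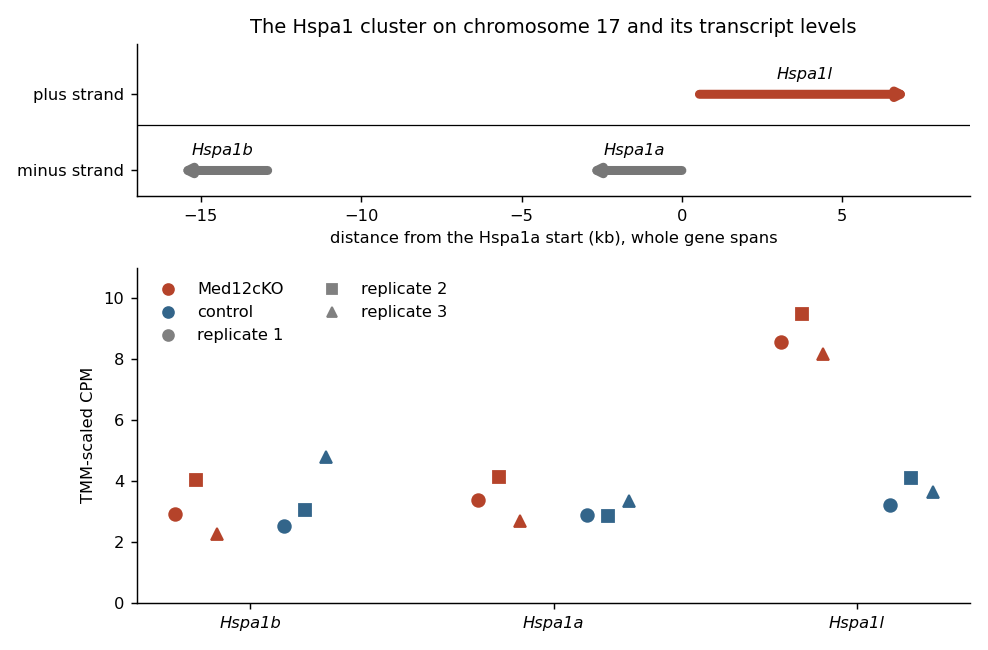
Top, the spans and strands of Hspa1b, Hspa1a and Hspa1l by distance from the Hspa1a start in kilobases; bottom, TMM-scaled CPM in each Med12cKO (left) and control (right) library, one point per library. Hspa1l lies at 8.18 to 9.47 CPM in Med12cKO and 3.22 to 4.10 CPM in control, while the points of Hspa1a and Hspa1b intermingle.

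Hspa8 (chr9:40800984-40810087, plus strand), the constitutive HSP70 of the cytosol, had the highest level per kilobase of exon among the 4 HSP70 genes. It measured 291, 269 and 346 CPM in Med12cKO and 283, 330.1 and 303 CPM in control. The highest and the lowest of the 6 libraries were both Med12cKO, and the groups overlapped fully. The Med12cKO mean was 302 ± 39.7 CPM and the control mean 305 ± 23.4 CPM, a log2 fold change of −0.02 (SE 0.14), with an interval from 0.80-fold to 1.22-fold. Processed pseudogenes share 63.4% of the 100-base windows of the Hspa8 transcript, and reads in those windows may be missing from its count or assigned elsewhere.

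The partners of HSP70 and the inducible HSP90 showed small differences. Dnajb1 (chr8:83608193-83612653, plus strand) encodes the main stress-inducible J-domain partner of HSP70 in the cytosol. It measured 43.6, 41.6 and 45.7 CPM in Med12cKO and 42.0, 37.6 and 46.0 CPM in control. The Med12cKO values lay inside the control range, and the log2 fold change was 0.06 (SE 0.12, 0.86-fold to 1.26-fold). Hsph1 (chr5:149614287-149636376, minus strand) encodes HSP105, an exchange factor of HSP70. It measured 43.3, 43.02 and 37.3 CPM in Med12cKO and 37.3, 39.3 and 38.4 CPM in control. Med12cKO replicates 1 and 2 lay above all controls and replicate 3 just above the lowest control, so the groups overlapped, with a log2 fold change of 0.10 (SE 0.12, 0.89-fold to 1.29-fold).

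Hsp90aa1 (chr12:110690605-110702728, minus strand), the inducible cytosolic HSP90, was the second gene at an unadjusted p under 0.05. It measured 95.2, 100.3 and 78.8 CPM in Med12cKO and 76.5, 67.7 and 74.1 CPM in control. The groups did not overlap, but Med12cKO replicate 3 stood only just above control replicate 1. The Med12cKO mean of 91.4 ± 11.2 CPM was 1.26 times the control mean of 72.8 ± 4.54 CPM, a log2 fold change of 0.33 (SE 0.13, unadjusted p = 0.027, adjusted p = 0.9999 in edgeR and 1.000 in DESeq2). Of the 10 genes 2 had groups that did not overlap, Hspa1l and Hsp90aa1, both higher in Med12cKO, where 8.23% of all genes tested did so (4.59% higher and 3.64% lower). With 1 library left out at a time, the log2 fold change of Hsp90aa1 ranged from 0.26 to 0.42. The value of 0.42 came without Med12cKO replicate 3, where edgeR's adjusted p was 0.407. Its constitutive paralog Hsp90ab1 measured 2092 ± 308 CPM in Med12cKO and 2119 ± 176 CPM in control (log2 fold change −0.02, SE 0.16). Pseudogenes share 47.5% of the 100-base windows of the Hsp90aa1 transcript, which leaves its level uncertain in the same way as that of Hspa8.

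**Figure D3:**
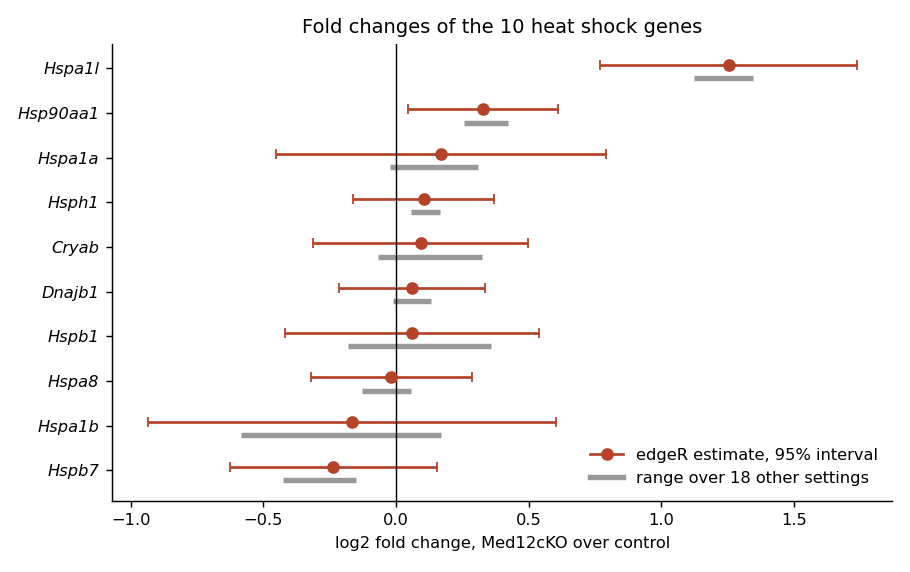
Log2 fold change, Med12cKO over control, of each heat shock gene from edgeR (points, with 95% intervals) above the range of the estimate over 18 other settings (grey bars). Hspa1l lies at 1.25 and Hsp90aa1 at 0.33, with intervals above 0, and the intervals of the other 8 genes include 0.

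The groups overlapped for all 3 small heat shock genes. Cryab (chr9:50751325-50756636, plus strand) encodes αB-crystallin, which protects desmin and titin. It measured 550.1, 561 and 749.8 CPM in Med12cKO and 697, 558 and 488 CPM in control. Med12cKO replicate 3 and control replicate 1 were high, control replicate 3 was low, and the groups overlapped (log2 fold change 0.09, SE 0.18, 0.81-fold to 1.41-fold). Hspb1 (chr5:135887919-135889563, plus strand) encodes the actin-binding HSP25 of mice. It measured 108, 101 and 161 CPM in Med12cKO and 144, 117 and 94.7 CPM in control. The same libraries were the highest, the second highest and the lowest as for Cryab, and the groups overlapped (log2 fold change 0.06, SE 0.21, 0.75-fold to 1.45-fold). Of the 100-base windows of the Hspb1 transcript 42.7% also occur in Hsp25-ps1 or Gm9817. Reads in those windows may be missing from the Hspb1 count or assigned elsewhere. Leaving out Med12cKO replicate 3 gave log2 fold changes of −0.07 for Cryab and −0.18 for Hspb1, and leaving out control replicate 3 gave −0.02 and −0.08.

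Hspb7 (chr4:141420779-141425311, plus strand) encodes the cardiovascular small heat shock protein, which binds filamin C and limits the length of thin filaments. It measured 1220.2, 1237 and 1745 CPM in Med12cKO and 1630.1, 1710.1 and 1609 CPM in control. Med12cKO replicates 1 and 2 lay below every control and replicate 3 above every control. The Med12cKO mean of 1401 ± 298 CPM and the control mean of 1649.9 ± 53.2 CPM stood −0.24 apart on the log2 scale (SE 0.17, adjusted p = 0.9999 in edgeR), with an interval from 0.65-fold to 1.11-fold. With 1 library left out at a time, the log2 fold change of Hspb7 ranged from −0.43 to −0.16. The value of −0.43 came without Med12cKO replicate 3 (adjusted p = 0.480 in edgeR). The summed cardiomyocyte markers stood lowest in Med12cKO replicates 1 and 2 among the Med12cKO libraries, at 39678 and 47842 CPM, against 51235 CPM in replicate 3. In control replicates 1 to 3 they summed to 62567, 63320 and 49352 CPM, where Hspb7 measured 1630.1, 1710.1 and 1609 CPM. The part of the cardiomyocyte markers in the spread of Hspb7 was not tested.

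Of the 10 genes 7 had a promoter entry, while Hspa8, Cryab and Hsp90aa1 had none and were not searched. A heat shock element core was found before 4 of the 7, in 2 copies for Hspb1 and 1 each for Hsph1, Hspa1a and Hspa1b. Of the 27025 genes with an entry 14.5% had a core before at least 1 start. The windows of Hspb1 and Hsph1 are printed for comparison with those of the HSP70 genes, with the same capitals.
Hspb1: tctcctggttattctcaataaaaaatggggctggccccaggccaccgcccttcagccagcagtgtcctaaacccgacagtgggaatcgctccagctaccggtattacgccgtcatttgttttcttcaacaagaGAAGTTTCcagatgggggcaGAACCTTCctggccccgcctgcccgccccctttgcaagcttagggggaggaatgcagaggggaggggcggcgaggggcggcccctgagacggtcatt
Hsph1: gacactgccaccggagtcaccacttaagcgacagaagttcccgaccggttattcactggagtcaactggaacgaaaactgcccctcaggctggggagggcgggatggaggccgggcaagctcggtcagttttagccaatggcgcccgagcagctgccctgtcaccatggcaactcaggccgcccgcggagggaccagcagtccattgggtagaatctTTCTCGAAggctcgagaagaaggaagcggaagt
They lie at chr5:135887669-135887918 (plus strand) and chr5:149636337-149636586 (minus strand) on GRCm38.p6. The cores begin 117 and 97 bases before the start of Hspb1 and 33 bases before that of Hsph1. A longer form, either core followed by any 2 bases and a repeat of its first 3 letters, was found before 0 of the 7 genes and before 0.514% of all genes. None of the genes with a core was called by edgeR or DESeq2. Over all genes edgeR called 0.022% and DESeq2 0.489%, so the lack of calls among so few genes says little. Their log2 fold changes were 0.06 for Hspb1, 0.10 for Hsph1, 0.17 for Hspa1a and −0.17 for Hspa1b.

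Levels were compared between genes as CPM per kilobase of annotated exon, with the exons of all transcripts of a gene merged. The merged length was 4301 bases for Hspa8, 7266 for Hsph1, 1479 for Cryab and 1031 for Hspb1. Their longest coding transcripts have 2394, 3802, 1117 and 930 bases, so values per kilobase depend on the length chosen. Per kilobase, Hspb7 and Cryab led, with 506 and 419 in Med12cKO and 596 and 393 in control. Hspb1 followed at 119.8 in Med12cKO and 115 in control, and Hspa8 at 70.2 in Med12cKO and 71.0 in control. Hsp90aa1 had 23.3 in Med12cKO and 18.5 in control, Dnajb1 13.6 and 13.1, and Hsph1 5.67 and 5.28 in the same order of groups. Hspa1l came next at 3.54 in Med12cKO and 1.48 in control, with Hspa1a at 1.15 and 1.02 and Hspa1b at 1.10 and 1.23. On these merged lengths each gene from Cryab down to Hspa1l lay above the next over all 6 libraries without overlap. The ranges of Hspb7 and Cryab overlapped, although Hspb7 was higher in 6 of 6 libraries. Those of Hspa1l and Hspa1b overlapped, with Hspa1l higher in 5 of 6, and those of Hspa1b and Hspa1a overlapped, with Hspa1b higher in 3 of 6. The longest coding transcript of Hspb7 has 2769 bases, the same as its merged length. On the longest coding transcripts Cryab stands above Hspb7, and Hspa8 above Hspb1, in some libraries, among them Med12cKO replicate 1. Both orders therefore rest on the merged lengths. Reads lost to shared windows, 63.4% of the 100-base windows for Hspa8, may lower levels as well.

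**Figure D4:**
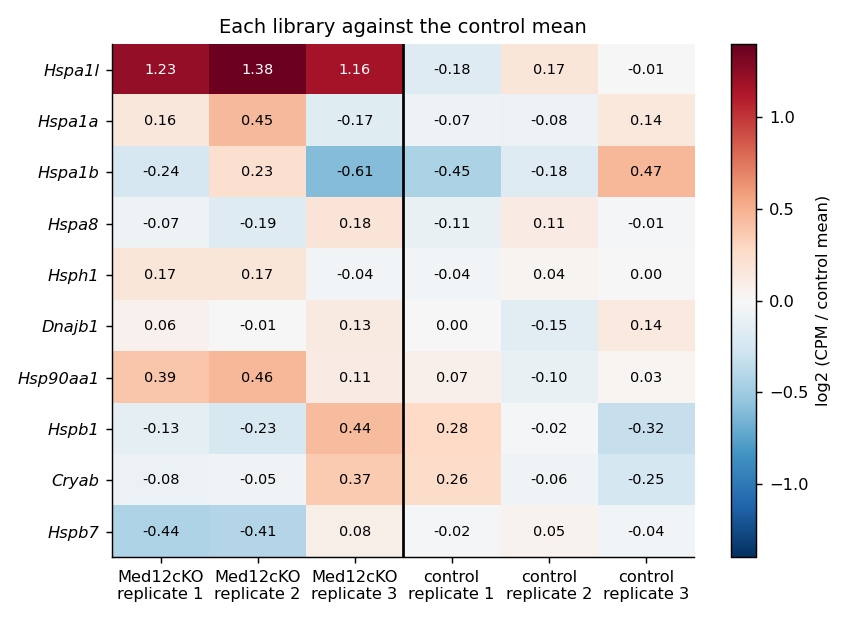
Log2 ratio of each library's CPM to the control mean for the 10 heat shock genes (rows), with Med12cKO libraries left of the line and control libraries right of it; red is above and blue below the control mean. Hspa1l reads 1.23, 1.38 and 1.16 in the Med12cKO libraries, whereas Hspb7, Cryab and Hspb1 separate Med12cKO replicate 3 from replicates 1 and 2.

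The remaining chaperone genes were taken as 7 lists with 71 symbols, 68 of which passed the filter on low counts. These lists were likewise chosen with earlier results of these data known. EdgeR called 0 of the 68, and so did DESeq2, and 3 reached an unadjusted p under 0.05, all higher in Med12cKO, where 2.16% of all genes tested did so in that direction. Their median log2 fold change was 0.03, with 40 positive and 28 negative values. The regulators held no called gene: Hsf1, the master factor of the heat shock response, measured 51.4 ± 4.81 CPM in Med12cKO and 51.9 ± 3.24 CPM in control (log2 fold change −0.02, SE 0.12). Hsf2, a related factor of development, stood at −0.06 on the log2 fold scale (SE 0.13), and Hsbp1, which binds HSF1, at 0.12 (SE 0.14).

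The other small heat shock genes held 2 of the 3, Hspb3 and Hspb8, and each had groups that did not overlap. Over the 68 genes 5 had groups without overlap, beside 8.23% of all genes tested. Hspb3, a small heat shock gene of muscle, measured 21.9, 22.004 and 29.1 CPM in Med12cKO and 20.4, 16.9 and 14.1 CPM in control, a log2 fold change of 0.51 (SE 0.19, unadjusted p = 0.024). Hspb8, which works with BAG3 to clear damaged Z-disc proteins, measured 79.3, 75.1 and 91.7 CPM in Med12cKO and 66.6, 68.8 and 66.7 CPM in control (log2 fold change 0.28, SE 0.12, unadjusted p = 0.035). Both had an adjusted p of 0.9999 in edgeR. Bag3 itself measured 144 ± 36.4 CPM in Med12cKO and 149 ± 11.9 CPM in control (log2 fold change −0.05, SE 0.17). Hspb6, a small heat shock protein phosphorylated by protein kinase A, had 147 ± 8.43 CPM in Med12cKO and 162 ± 32.5 CPM in control (log2 fold change −0.14, SE 0.15). Hspb2 lies head to head with Cryab and shares 252 bases of exon with it on the opposite strand. It measured 72.6, 77.4 and 120.6 CPM in Med12cKO and 101, 82.9 and 75.5 CPM in control, with Med12cKO replicate 3 and control replicate 1 highest, as for Cryab.

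The third was Dnajb5, which encodes a J-domain protein that in heart muscle binds the histone deacetylase HDAC4. It measured 54.4, 69.0 and 59.2 CPM in Med12cKO and 43.7, 42.8 and 47.2 CPM in control. The groups did not overlap, and the log2 fold change was 0.45 (SE 0.13, unadjusted p = 0.0061, adjusted p = 0.640 in edgeR). Of the 16 other J-domain genes 10 had positive and 6 negative values, with Dnajb11 at 0.18 (SE 0.12) the mitochondrial Dnaja3 at −0.21 (SE 0.12) and Dnajb6 at −0.11 (SE 0.15). Of the 10 other HSP70 and HSP110 genes 8 had positive log2 fold changes (median 0.17), among them Hspa13 at 0.29 (SE 0.15) and Hspa4l at 0.25 (SE 0.14), while the mitochondrial Hspa9 stood at −0.13 (SE 0.13) and Hspa12b at −0.06 (SE 0.13). The endoplasmic Hsp90b1 stood at 0.17 (SE 0.13) and the mitochondrial Trap1 at −0.07 (SE 0.12). The 22 co-chaperones split evenly, 11 and 11, from −0.10 for Sugt1 and −0.09 for Ahsa1, both HSP90 partners, to 0.16 for Unc45a, a myosin chaperone, and 0.19 for Tomm34. The 10 chaperonins, which fold actin and tubulin or work in mitochondria, lay between −0.07 for Cct4 and 0.05 for Cct5, with Cct2 at −0.05 and Cct3 at 0.02.

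**Figure D5:**
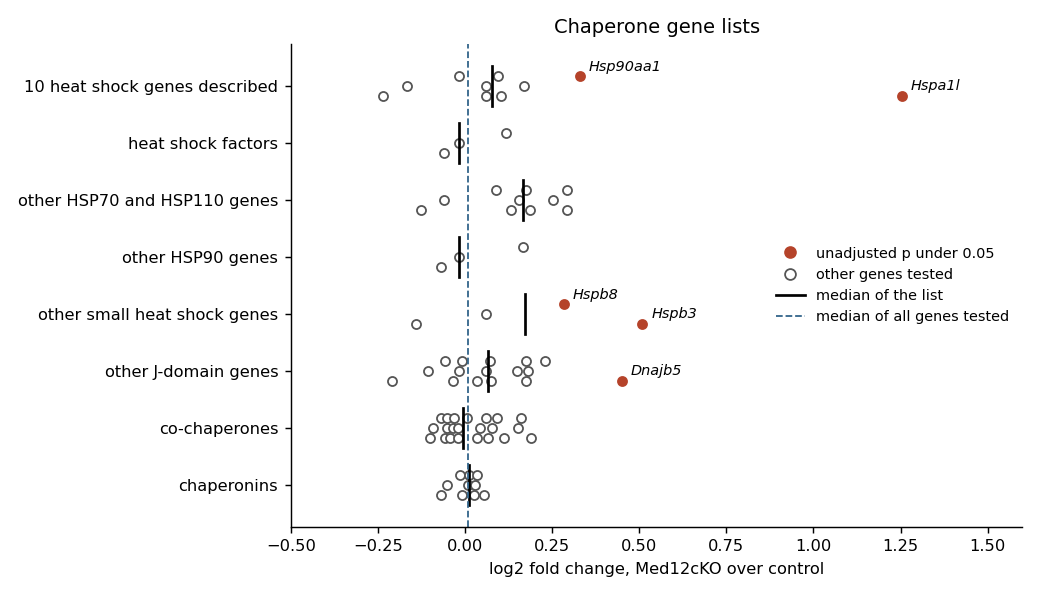
Log2 fold changes, Med12cKO over control, of the 10 heat shock genes and of 7 lists of other chaperone genes that passed the filter on low counts; filled points have an unadjusted p under 0.05, black bars are list medians and the dashed line is the median of all genes tested. Hspa1l, Hsp90aa1, Dnajb5, Hspb3 and Hspb8 are the filled points, and co-chaperones and chaperonins lie within 0.2 of 0.

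Immediate-early genes, which respond within minutes to handling of tissue as well as to growth signals, were set beside the heat shock genes. All 18 had negative log2 fold changes (median −0.23), with summed levels of 527 to 640 CPM in Med12cKO and 660 to 761 CPM in control, where 6519 of 13629 genes tested were negative. EdgeR called 0 of the 18. Egr1 and Jun were at an unadjusted p under 0.05, where 1.61% of all genes were in that direction, and DESeq2 called 1, Egr1, where it called 0.489% of all genes. Summed endothelial markers were 1237 to 1448 CPM in Med12cKO and 1337 to 1484 CPM in control, fibroblast markers 7351 to 11357 and 8607 to 9863 CPM, and smooth muscle markers 1267 to 2041 and 709 to 1273 CPM, in the same order of groups. The 5 atrial markers summed to 1560 to 1757 CPM in Med12cKO and 1856 to 2483 CPM in control, without overlap, with a median log2 fold change of −0.44. EdgeR called 1 of the 7 smooth muscle markers, whose median log2 fold change was 0.52. It called 0 of the atrial, endothelial and fibroblast markers, where 0.022% of all genes tested were called. The part of these differences in the levels of Hspa1l and Hsp90aa1 was not tested.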

How the data were processed

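The deposited table holds raw read counts per gene symbol, made by the authors with no normalization. Per the submitters' processing notes, TopHat2 2.0.0, featureCounts and edgeR 3.14.0 were used with build GRCm38 (mm10). The annotation, strand use and treatment of reads with several matches are not stated in the sources used here. Columns were matched to samples by their descriptions, and groups and replicate numbers come from the titles.

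Of the 24062 symbols, the 13629 kept by filterByExpr (minimum count 10, minimum total 15) were fitted with edgeR 4.0.16 (R 4.3.3). The fit used TMM scaling, a robust quasi-likelihood F test and Benjamini-Hochberg adjustment over the genes kept. The SE is the absolute log2 fold change over the square root of F, and 95% intervals use the test's degrees of freedom. DESeq2 1.42.0 and limma-voom (limma 3.58.1) were alternatives. DESeq2 was fitted without that filter, on 18745 genes, so it differs from edgeR in the filter as well as in the test. A permutation test used 20 arrangements of log2 CPM with a prior count of 2. Depth was 8453346 to 10911698 counts per library; limits of 3 counts cover counting error only. Replicates of a group were further apart than counting noise allows (chi-square over its degrees of freedom 15.3 to 31.0).

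Positions, exon lengths and shared windows come from GENCODE M21 (GRCm38), promoters from RefSeq (GRCm38.p6). Members and lists were chosen with earlier results of these data known. Named were all members, Med12 and, per list, up to 2 genes per direction with the lowest p, plus Hsf1, Bag3, Hspb2, Hspb6, Hspb8 and Hsp90ab1.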

Additional observations from a re-analysis of the deposited data

How the results depend on the processing

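The log2 fold changes of the 10 heat shock genes were recomputed under 18 settings. Of these 180 values 165 kept their direction and stayed uncalled, 1 became called (Hspa1l in DESeq2, adjusted p = 0.023) and 14 changed sign, all in genes whose interval includes 0. Hspa1l stayed between 1.12 and 1.35 and Hsp90aa1 between 0.26 and 0.42. Signs changed for Hspa1a in the libraries with letter I (−0.022), and for Hspa8 with library totals as the only scaling (0.011) and in the libraries with letter I (0.019). For Hspa1b they changed without the libraries with thymus markers (0.17) and with the pair summed (0.00027). The summed value is that of the pair, entered for Hspa1a and Hspa1b alike, and is not an estimate of Hspa1b alone. With 1 library left out at a time, log2 fold changes ranged from −0.41 to 0.14 for Hspa1b, −0.13 to 0.058 for Hspa8, −0.18 to 0.22 for Hspb1, −0.068 to 0.25 for Cryab, −0.0098 to 0.13 for Dnajb1 and 1.18 to 1.35 for Hspa1l, and edgeR's adjusted p for Hspa1l from 0.251 to 0.744.

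Heat shock genes called higher numbered 0 in edgeR and limma-voom and 1 in DESeq2. Over all genes edgeR called 1 higher and 2 lower. There were 29 higher and 32 lower in DESeq2, 0 higher when edgeR used the size factors of DESeq2, 2 higher with library totals only, without the libraries with thymus markers or with a term for them, 0 higher and 1 lower in the libraries with letter I, and 0 to 1 higher and 1 to 2 lower with 1 library left out. Same-numbered libraries of the groups did not consistently deviate together (correlations −0.31, 0.44 and −0.35), so the numbers were not taken as pairs. The highest correlation, 0.71, was between Med12cKO replicate 1 and control replicate 3, the libraries with thymus markers. With the replicate block 0 genes were called higher and 2 lower, and Hspa1l had an adjusted p of 0.301. DESeq2 with each library left out was added after the data were seen. At 21 to 96 counts per library, counting error limits the Hspa1 genes. The causes of these changes were not tested.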
